A study of Mus musculus with 35 samples.

Results

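The mouse H2 complex is the major histocompatibility complex of chromosome 17, a dense cluster of immune and housekeeping genes. Its chromatin was described here in cells of the cranial neural crest, from which bone, cartilage and connective tissue of the face form. The groups differed in UTX, an X-linked enzyme. The segment was chosen by position, as every entry of the deposited H3K27me3 and H3K4me3 count tables that lay on chromosome 17 of mouse build mm9 between 33500000 and 38000000. It held 143 of the 37812 H3K27me3 entries and 342 of the 90922 H3K4me3 entries, or 485 of 128734 in all, and the rest of chromosome 17 held 4685. The segment was proposed with the knockout against wild-type contrasts of both marks in view, so those contrasts are given below as a description. Counts of entries past a threshold stand beside the same share of all autosomal entries, as a description of the contrast behind the choice and not as a test of the segment. Because each table lists wild-type and female knockout peaks one after another, entries of 1 mark that overlapped by at least 1 bp were also merged, which left 80 H3K27me3 regions and 188 H3K4me3 regions. No mm9 annotation was used, so that the name of the segment was not checked against gene positions on that build and no peak was assigned to a gene.

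The cells were Tomato-positive and sorted at E12.5 from embryos carrying Wnt1-Cre, which is active in the neural crest lineage, and a Rosa-Tomato reporter. Female knockouts (fko) were Utx fl/fl with Wnt1-Cre, male knockouts (mko) were Utx fl/y with Wnt1-Cre, and the controls (wt) were WT Wnt1-Cre males. Each histone mark had 3 fko libraries, 1 mko library and 3 wt libraries, made from unfixed chromatin digested with micrococcal nuclease. RNA-seq had 2 libraries of each group, and UTX itself was mapped in 1 library of fixed O9-1 cells, a wild-type neural crest line from embryonic day 8.5. The labels give no mouse strain for any group, so a chromosome 17 haplotype carried by the knockouts and the loss of UTX cannot be told apart. Sex and genotype go together in fko against wt, whereas mko and wt are both male. Nothing in the labels says that libraries came from separate embryos, so p-values measure the spread between these libraries, which may be technical.

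H3K27me3 is deposited by Polycomb repressive complex 2 over silent genes, often in broad domains, and H3K4me3 marks the starts of active genes. Class I genes of the complex (H2-K, H2-D, H2-Q, H2-T and H2-M) encode the cell surface molecules that present peptides to CD8+ T cells, class II genes present peptides to CD4+ T cells, and the class III stretch between them holds complement, cytokine and many housekeeping genes. The class I genes are near copies of each other, and their number and sequence differ between inbred strains. UTX is a demethylase that takes methyl groups off lysine 27 of histone H3.

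Sums over the peaks ranged from 15412991 to 19088922 counts per library for H3K27me3 and from 22645778 to 40129294 for H3K4me3, and the RNA libraries held 14513993 to 16350892 counts in genes. All values below are counts or CPM (counts scaled to a common library total), scaled with TMM factors that came from autosomal peaks for the marks and from all genes tested for RNA. Kdm6a, the gene of UTX, had 52.9 and 62.4 CPM in fko, 40.5 and 31.9 CPM in mko and 45.6 and 51.5 CPM in wt RNA. Neither difference passed the threshold in edgeR's quasi-likelihood test (adjusted p = 0.391 in fko and 0.198 in mko), and a gene-level count cannot show that only some exons are deleted. The 8 neural crest markers were all above 0 in every RNA library. The 3 erythroid markers, of which Hba-a1 was at 0 in every library, summed to 323 to 338 CPM in fko and 246 to 404 CPM in wt. In mko they summed to 257 CPM in replicate 1 and 1098 CPM in replicate 2. The part of this difference in the mko RNA values was not tested.

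Over the segment as a whole, H3K27me3 was lower in both knockouts and H3K4me3 was higher. Shares were taken with 1 entry per merged region, in the segment and on the autosomes alike. The segment took 0.456%, 0.464% and 0.465% of these autosomal H3K27me3 counts in fko, 0.540% in mko, and 0.596%, 0.591% and 0.588% in wt. It took 0.612%, 0.612% and 0.611% of these autosomal H3K4me3 counts in fko, 0.602% in mko, and 0.570%, 0.555% and 0.561% in wt. No library of either knockout overlapped the wt libraries for either mark. For H3K27me3 the mko library lay between the fko and wt libraries, and for H3K4me3 it lay nearer to fko. Strong H3K4me3 regions, at 20 CPM or more, were mostly higher in fko than in wt both in the segment (51 of 54) and on the rest of chromosome 17 (370 of 414). Their part in the share was not tested.

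**Figure D1:**
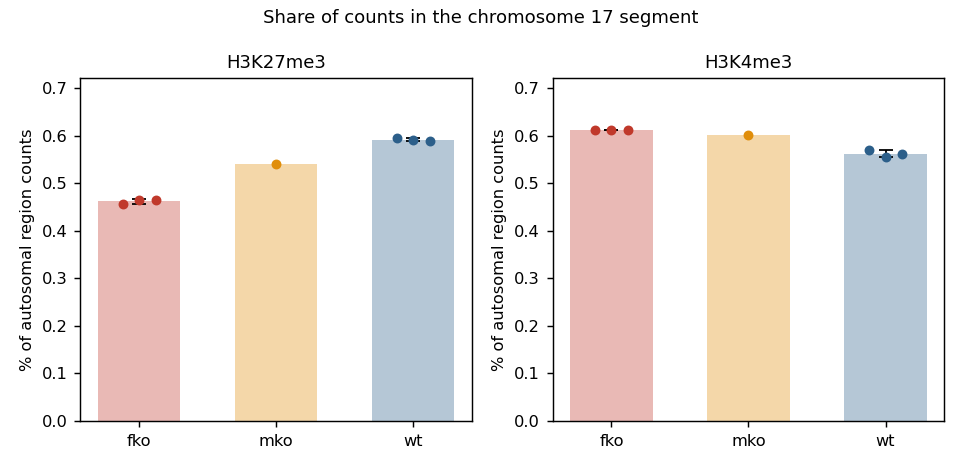
Share of autosomal counts in peaks, with 1 entry per merged region, that fell in the chromosome 17 segment, as a percentage (y axis), for fko, mko and wt (x axis). Points are libraries, bars are group means and whiskers are 1 SD over 3 libraries, with no whisker for the single mko library; the H3K27me3 share averaged 0.462% in fko, 0.540% in mko and 0.592% in wt.

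Of the 142 H3K27me3 entries that passed the filter on low counts in fko against wt, 99 were past an adjusted p of 0.05 (edgeR), 77 of them lower and 22 higher. On the autosomes 25.8% of entries were past it, 11.9% lower and 13.9% higher, and on the rest of chromosome 17 it was 329 of 1169. The median log2 fold change of the segment entries was -0.28, against -0.01 on the rest of chromosome 17 and 0.00 on the autosomes. A log2 fold change of at least 1 in size, which is a 2-fold difference, was reached by 27 entries of the segment, by 20 on the rest of chromosome 17 and by 296 of the 33893 autosomal entries tested, a background of 0.873%. In mko against wt 36 of 143 entries were past the threshold, 28 lower and 8 higher, beside 6.94% on the autosomes (2.66% lower, 4.28% higher), and the median was -0.14. Both comparisons share the wt libraries.

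H3K4me3 differed from this pattern. In fko against wt 219 of 342 entries were past the threshold, beside 57.4% on the autosomes. Their direction was 162 higher and 57 lower, whereas on the autosomes 24.8% were higher and 32.5% lower. Among entries with a log2 fold change of at least 1 in size the segment had 23 higher and 12 lower, and the rest of chromosome 17 had 22 higher and 280 lower, beside an autosomal background of 9.13%. In mko against wt 200 entries were past the threshold, 145 higher and 55 lower, beside 49.3% on the autosomes (23.3% higher, 26% lower). With DESeq2 it was 154 entries, 134 higher and 20 lower, beside 31% on the autosomes.

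Signal strength was not the same in the segment and elsewhere, so regions were also set side by side within ranges of mean CPM. Among H3K4me3 regions with 1 to 5 CPM the median log2 fold change of fko against wt was 0.01 in the segment (46 regions) and -0.39 on the rest of chromosome 17 (626 regions). Of those regions, 8 in the segment and 2 on the rest of the chromosome were at least 2-fold higher. At 20 CPM or more the medians were 0.23 (54 regions) and 0.17 (414 regions), and no region in the segment reached a 2-fold difference. For H3K27me3 the median of the strongest regions, at 20 CPM or more, was -0.19 in the segment (37 regions) and 0.00 on the rest of chromosome 17 (138 regions). Only 8 of those 37 regions had a positive fold change, against 68 of the 138.

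The differences were not spread evenly along the segment. After merging, 13 H3K27me3 regions were at least 2-fold lower in fko than in wt, between 34444801 and 36310359, and 3 were at least 2-fold higher. Of these 13, 8 lay between 36 and 36.5 Mb, among 15 regions in that window with a median log2 fold change of -1.14 in fko and -0.37 in mko. The summed H3K27me3 signal of the 15 regions was 527, 543 and 544 CPM in fko, 806 CPM in mko, and 964, 940 and 940 CPM in wt. The same window held 10 of the 18 H3K4me3 regions that were at least 2-fold higher and none of the 9 that were at least 2-fold lower. Summed H3K4me3 there was 540, 525 and 509 CPM in fko, 535 CPM in mko, and 435, 415 and 416 CPM in wt. The window from 34.5 to 35 Mb showed no tested region past 2-fold for either mark in fko against wt, and 1 H3K4me3 region in mko against wt. A weak H3K27me3 region there, chr17:34875330-34875741, was too low to be tested in fko against wt. It had 5, 5 and 8 counts in fko, 10 in mko, and 14, 8 and 17 in wt. Summed H3K27me3 of the window was 280, 275 and 272 CPM in fko, 278 CPM in mko and 270, 260 and 260 CPM in wt.

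**Figure D2:**
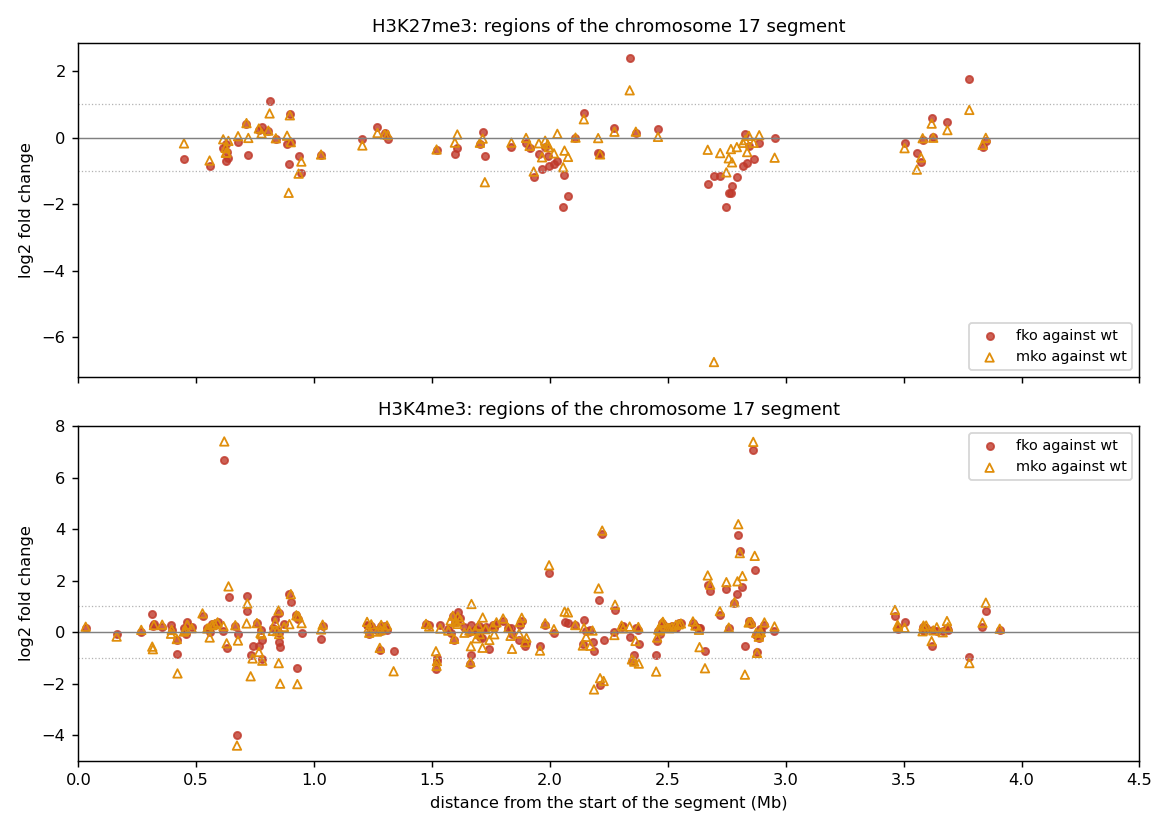
Log2 fold change of each merged region (y axis) against its distance from the start of the segment in Mb (x axis), with H3K27me3 above and H3K4me3 below. Filled circles are fko against wt and open triangles mko against wt; in the stretch from 2.5 to 3 Mb the fko circles of H3K27me3 lie mostly below 0 and several of H3K4me3 lie above 1. The lowest H3K27me3 triangle is a region with 0 counts in the mko library, and values of 6 or more in size depend on the prior count.

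Counted in 1 Mb windows over the autosomes, the window starting at 36 Mb of chromosome 17 held more 2-fold lower H3K27me3 regions (8 of 15) than any of the other windows among 2111, and the window starting at 35 Mb came next with 4. For 2-fold higher H3K4me3 regions the window at 36 Mb also came first of 2315, with 10 of its 35 regions, followed by a window on chromosome 4 with 8. For 2-fold lower H3K4me3 regions windows of other chromosomes came first, with up to 18. These ranks describe the contrast by which the segment was proposed.

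**Figure D3:**
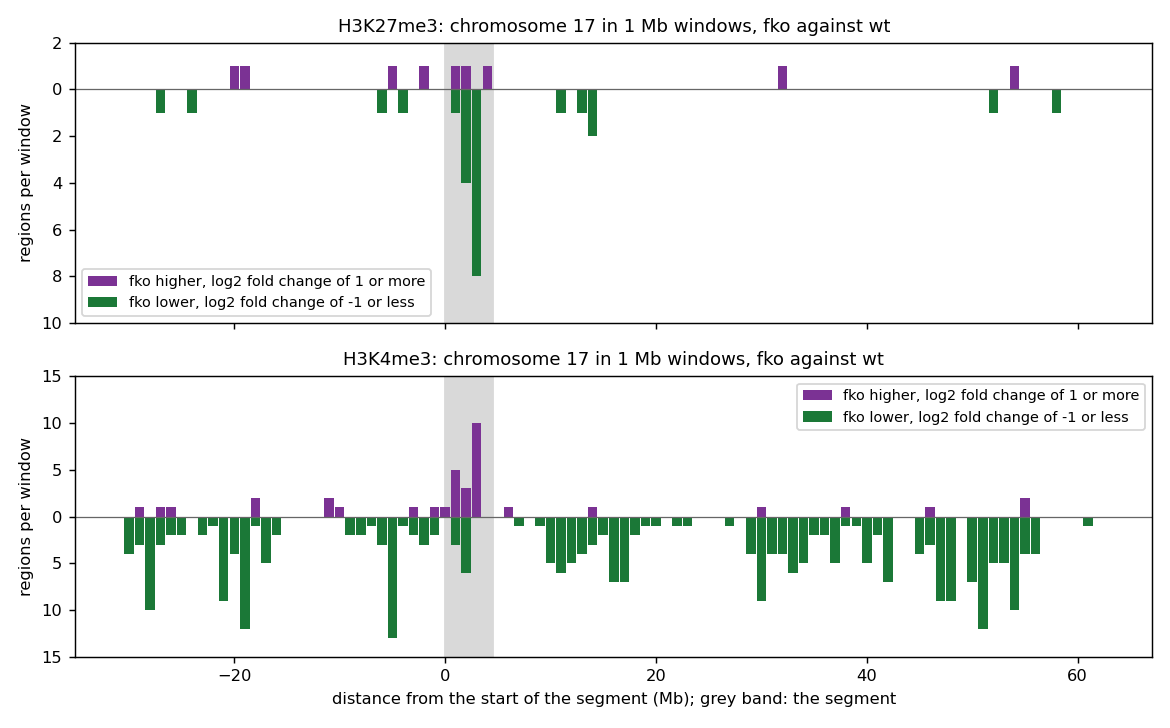
Number of merged regions in 1 Mb windows of chromosome 17 (y axis) that were at least 2-fold higher (purple, up) or 2-fold lower (green, down) in fko than in wt, against distance from the start of the segment in Mb (x axis). The grey band is the segment; its window with 8 lower H3K27me3 regions also has 10 higher H3K4me3 regions, while lower H3K4me3 regions are found along the whole chromosome.

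The region with the most H3K27me3 in wt was a domain of 35.5 kb at chr17:36274830-36310359. It had 145, 149 and 147 CPM in fko, 275 CPM in mko, and 345, 332 and 331 CPM in wt. The fko libraries were lowest and alike, and the mko library lay between both groups. The log2 fold change was -1.19 (SE 0.03) in fko and -0.29 (SE 0.04) in mko.

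Just below it, the regions chr17:36245296-36250911, chr17:36255652-36261134, chr17:36265761-36269054 and chr17:36270900-36273415 showed the same order. The first had 133, 141 and 140 counts in fko, 291 in mko, and 616, 588 and 513 in wt. The second had 192, 180 and 207 counts in fko, 408 in mko, and 637, 603 and 556 in wt. In both regions fko was lowest, mko intermediate and wt highest, without overlap. The log2 fold changes of the 4 regions in fko were -2.10, -1.68, -1.67 and -1.44, and in mko -1.05, -0.62, -0.35 and -0.74. Above the large domain, a domain of 30.7 kb at chr17:36348390-36379083 had 147, 150 and 151 CPM in fko, 210 CPM in mko, and 240, 231 and 231 CPM in wt.

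A second group of lower regions lay near 35.6 Mb. The region chr17:35575394-35577668 had 108, 99 and 84 counts in fko, 225 in mko, and 307, 352 and 303 in wt. The region chr17:35555448-35556477 was weak, with 6, 10 and 8 counts in fko, 19 in mko, and 44, 28 and 29 in wt. Both had their fko counts below every other library, with log2 fold changes of -1.77 and -2.10.

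The opposite difference was also present. The region chr17:35833772-35842391 had 773, 741 and 623 counts in fko, 369 in mko, and 141, 142 and 111 in wt, a log2 fold change of 2.39 in fko and 1.42 in mko. The region chr17:37277063-37279873 had 316, 314 and 264 counts in fko, 160 in mko, and 106, 84 and 67 in wt, with 1.75 in fko and 0.83 in mko. In both the order of the groups was the reverse of that at 36 to 36.5 Mb, with mko again in between. The regions chr17:35641039-35646267 and chr17:34396363-34397317 followed with 0.75 and 0.71 in fko.

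Of the 3 H3K27me3 regions with the highest means, 1 did not share these differences when taken as a whole. The region chr17:34320052-34354892, a domain of 34.8 kb, had 299, 297 and 296 CPM in fko, 300 CPM in mko, and 314, 299 and 300 CPM in wt, so that the groups overlapped (log2 fold change -0.03 in fko, SE 0.03). Its parts differed. The entry chr17:34320553-34326666 had 31.8, 30.7 and 30.2 CPM in fko, 33.6 CPM in mko, and 41.7, 41.5 and 41.2 CPM in wt. Its log2 fold change was -0.42 in fko and -0.30 in mko. The entry chr17:34328339-34356006 had 0.04 in fko and 0.03 in mko. At the low end of the segment, the first region inside (chr17:33946525-33949439) had a log2 fold change of -0.63 in fko and the nearest outside (chr17:33042421-33043352) had -0.70. At the high end, the last region inside (chr17:37346277-37350433) had -0.10 and the nearest outside (chr17:39979807-39985936) had 0.28. The cause of the very high counts in the last of these was not tested, and no mm9 sequence was used to see whether it is a repeat, which limits its use as a neighbour. It had 93450 to 106210 counts in fko, 93206 in mko and 73886 to 85275 in wt, far above any region of the segment.

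**Figure D4:**
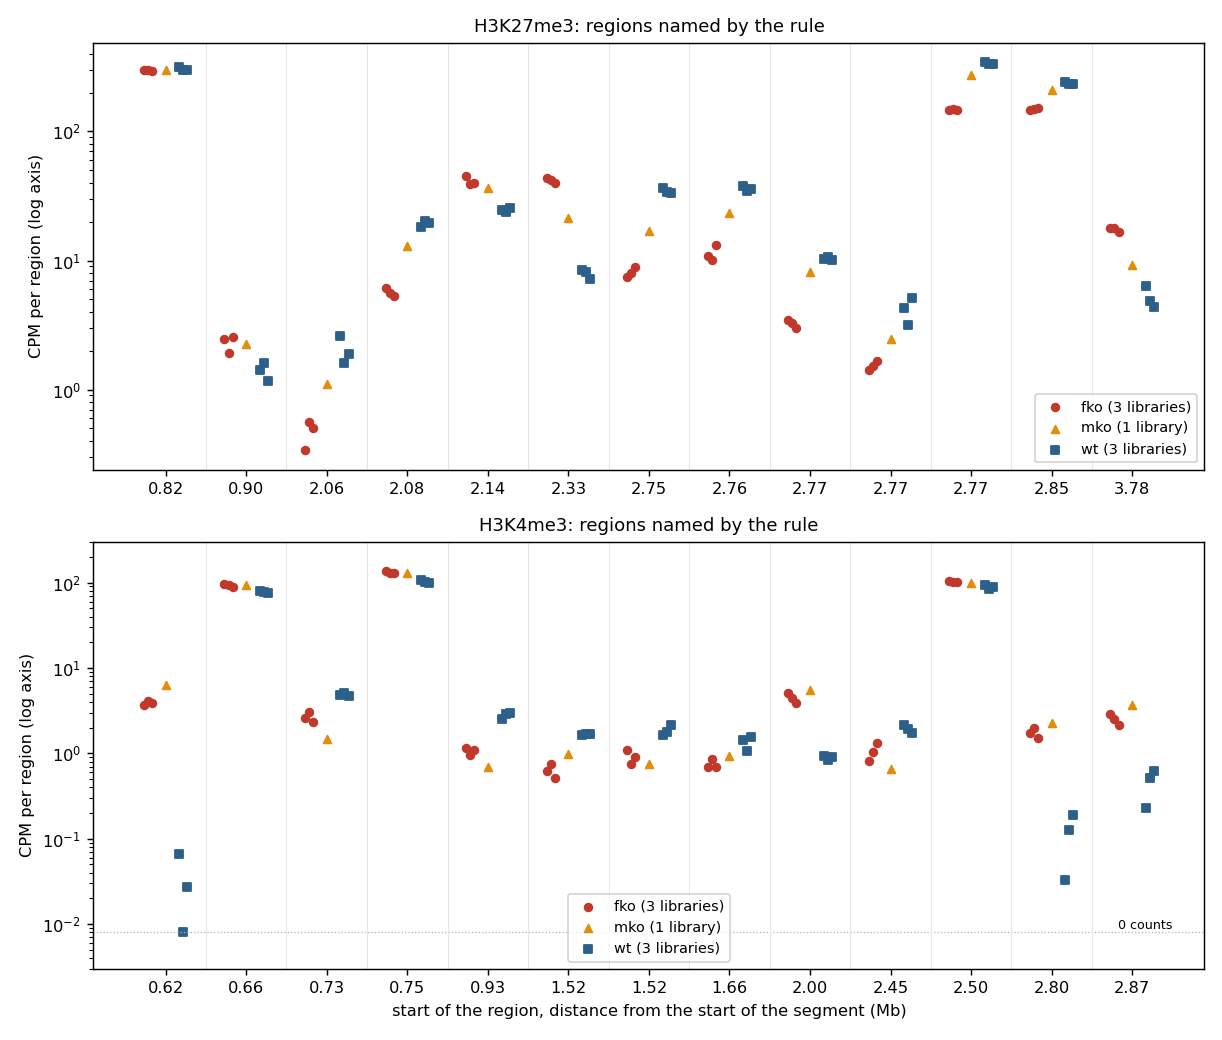
CPM per region on a log axis (y axis) for the H3K27me3 (above) and H3K4me3 (below) regions with the largest differences and the highest levels, ordered by distance of their start from the start of the segment in Mb (x axis). Red circles are the 3 fko libraries, orange triangles the mko library and blue squares the 3 wt libraries; the wt library with 0 counts is drawn on the dotted line. The mko triangles lie between the groups in most H3K27me3 regions and outside the fko libraries in many H3K4me3 regions.

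H3K4me3 held peaks in the knockouts that were close to absent in wt, and weak regions with the reverse order are given further below. The region chr17:34118344-34119170 had 137, 136 and 130 counts in fko, 228 in mko, and 2, 0 and 1 in wt. The ratio of fko to wt was 107, with a 95% interval of 36.4 to 521 that covers counting error only, and the ratio of mko to wt was 171. Of 10 autosomal H3K4me3 regions with at most 3 counts in all libraries of 1 group and at least 20 in each library of the other, it was the single one in the segment.

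Several of the other gained peaks lay inside the H3K27me3 domains that were lower. Within the 35.5 kb domain, chr17:36298273-36298971 had 64, 67 and 51 counts in fko, 83 in mko, and 1, 3 and 7 in wt. Within the 30.7 kb domain, chr17:36368028-36368705 had 107, 84 and 71 counts in fko, 132 in mko, and 7, 12 and 23 in wt. Also inside that domain, chr17:36362072-36362382, picked after its values were seen, had 20, 22 and 13 counts in fko, 23 in mko and none in any wt library. Against a floor of 3 counts over the wt group this is at least 14.6-fold higher in fko and at least 17.2-fold higher in mko. The lower 95% limit of the fko to wt ratio from counting error was 11.5.

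Both knockouts had these peaks, and no fko or mko library overlapped wt in them. The region chr17:35495954-35496778, outside the 36 to 36.5 Mb window, had 189, 149 and 130 counts in fko, 197 in mko, and 28, 20 and 33 in wt, a log2 fold change of 2.31 in fko and 2.60 in mko. Among the 18 H3K4me3 regions at least 2-fold higher in fko, 11 were called as peaks in fko alone, which goes with their choice by fko values. Of the same 18, 13 overlapped an H3K27me3 region of either genotype (72.2%). Of these 13, 9 lay between 36 and 36.5 Mb, several in the same domain, so they are not independent sites. Of the 161 regions that differed by less than 2-fold, 60 (37.3%) overlapped an H3K27me3 region, and of the 9 at least 2-fold lower, 2 (22.2%) did.

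Several sites held all 3 measured features, and 1 of them, picked after its values were seen, is given here. At chr17:36168208-36169977 H3K27me3 was 35, 34 and 31 counts in fko, 70 in mko, and 88, 88 and 82 in wt. H3K4me3 at chr17:36168327-36169893 was 340, 265 and 265 counts in fko, 391 in mko, and 70, 54 and 88 in wt. A UTX peak of the O9-1 cells lay at chr17:36168353-36169888, with a fold enrichment of 5.14 and a −log10 q of 12.8 in the authors' list. At this site H3K27me3 was thus lower and H3K4me3 higher in both knockouts over the same stretch. Other sites with all 3 features went different ways. For H3K27me3 and H3K4me3 the log2 fold changes in fko were -0.61 and 1.38 at chr17:34132627-34139896. They were 0.33 and 0.09 at chr17:34765595-34771306, and 2.39 and -0.20 at chr17:35833772-35842391.

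H3K4me3 regions that were lower were weaker. The lowest fold change among regions of at least 1 CPM was -1.42, at chr17:35016205-35016694, which had 23, 25 and 17 counts in fko, 36 in mko, and 49, 40 and 62 in wt. The region chr17:34428496-34428919 had 43, 32 and 37 counts in fko, 25 in mko, and 76, 69 and 110 in wt. The remaining 4 of the 6 lowest had log2 fold changes of -1.02 to -0.87 in fko. Below 1 CPM larger losses were present. The region chr17:34172596-34172773 had 4 counts over the fko group, 1 in mko and 60 over the wt group. The region chr17:35712403-35712672 had 24 counts over the fko group, 10 in mko and 88 over the wt group. The strongest peaks of the segment differed little by comparison, with log2 fold changes in fko of 0.35, 0.25 and 0.19 at chr17:34252044-34262303, chr17:34160596-34170523 and chr17:36001628-36010929. At the ends, the first region inside (chr17:33529856-33532249) had 0.15 and the nearest outside (chr17:33493931-33496657) 0.17, and the last inside (chr17:37406815-37407947) had 0.09 and the nearest outside (chr17:39148313-39148611), a weak one, 1.65.

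Where an H3K27me3 region and an H3K4me3 region overlapped, their fold changes in fko tended to have opposite signs. Over 75 such pairs of the segment Pearson's r was -0.37 and Spearman's rho -0.39, and over 532 pairs on the rest of chromosome 17 r was -0.21 and rho -0.28. The pairs share libraries and neighbouring sites, so these are descriptions. Of 39 segment pairs with both marks past the threshold, 25 had lower H3K27me3 with higher H3K4me3 and 4 had the reverse, while on the rest of chromosome 17 it was 39 and 33 of 104. In mko r was -0.19 in the segment and -0.01 on the rest of the chromosome.

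The direct comparison of fko with mko uses the same libraries as the contrasts behind the choice of the segment, so it is a description too. It found H3K27me3 lower in fko than in mko at 42 of 143 entries and higher at 7, or 49 in all, beside 2.84% past the threshold on the autosomes (1.43% lower, 1.41% higher) and 53 of 1175 entries on the rest of chromosome 17. The difference was -0.90 (log2, SE 0.04) at the 35.5 kb domain and -1.05 (SE 0.12) at chr17:36245296-36250911. Of the 14 H3K27me3 regions that averaged 1 CPM or more and differed 2-fold between fko and wt, 13 had the mko library between both groups and 10 were past the threshold between fko and mko. The same order was found elsewhere, in 8 of 10 such regions on the rest of chromosome 17, with 4 past the threshold, and in 80 of 118 on all autosomes, with 31 past it. The median log2 fold change in size of the 14 regions was 1.56 in fko and 0.67 in mko. Regions picked for their fko values are extreme in fko by that choice, so this order is a description. With 1 mko library, which was assumed to vary like the others, a difference between the genotypes and one between single libraries cannot be told apart.

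For H3K4me3 the knockouts were closer. Of 342 entries 43 differed between fko and mko, 23 higher and 20 lower in fko, beside 11.9% on the autosomes (4.66% higher, 7.25% lower), so the share was near the background. In 13 of the 16 H3K4me3 regions with at least 1 CPM and a 2-fold difference, the mko library lay beyond the fko libraries on the side away from wt. On the rest of chromosome 17 it did so in 25 of 64, and on all autosomes in 523 of 1609. These regions too were picked for their fko values, and their order rests on 1 mko library. The median log2 fold change of those 16 regions in size was 1.96 in mko and 1.55 in fko. At chr17:34118344-34119170 H3K4me3 was lower in fko than in mko by -0.71 (log2, SE 0.15).

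The authors' peak lists, called on pooled replicates of fko and wt, were set beside the counts. H3K27me3 peaks in the segment numbered 67 over 304 kb in fko and 76 over 393 kb in wt. H3K4me3 peaks numbered 175 over 347 kb in fko and 167 over 310 kb in wt. Of the 80 merged H3K27me3 regions, 4 (5%) were called in fko alone and 19 (23.8%) in wt alone, while on the rest of chromosome 17 it was 10.2% and 16.1%. Of the 188 H3K4me3 regions, 25 (13.3%) were called in fko alone and 13 (6.91%) in wt alone, while on the rest of chromosome 17 it was 6.14% and 26.4%. These lists come from the same libraries as the counts.

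UTX binding was measured in other cells and not in these embryos. The O9-1 library had 105 UTX peaks in the segment, of which 78 (74.3%) overlapped an H3K4me3 entry and 14 (13.3%) an H3K27me3 entry. On the rest of chromosome 17 it was 64.1% and 14.5% of 870 peaks. Of the H3K4me3 regions at least 2-fold higher in fko, 4 of 18 (22.2%) overlapped a UTX peak, and none of the 9 that were at least 2-fold lower did. Among the 161 that differed less, 85 (52.8%) overlapped one. The higher, lower and less different regions were not alike in strength and length. Their medians were 2.63, 0.69 and 10.6 CPM, and 826, 424 and 1448 bp. The part of strength and length in these overlaps was not tested. For H3K27me3 a UTX peak was found on 1 of the 3 higher regions, chr17:35833772-35842391, and on 1 of the 13 lower ones.

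RNA was not used to choose the segment. Since peaks could not be placed on genes, the genes from Tapbp to Mog in the gene order of the GRCm38.p6 RefSeq table were taken as the genes of the complex. Of 255 such genes 174 were found in the count table, 96 passed the filter on low counts and 13 had no count in any library. With 3 group means, Ddr1 was the single one of the 96 past an adjusted p of 0.05 in edgeR, in fko and in mko alike, beside 1.12% of all 14521 genes in fko and 2.34% in mko. At an unadjusted p under 0.05 it was 23 genes in fko and 19 in mko, beside 19.6% and 20.2% of all genes, so both counts were near the background.

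Ddr1, a collagen receptor tyrosine kinase, had 55.8 and 69.1 CPM in fko, 56.8 and 68.8 CPM in mko, and 121 and 134 CPM in wt. Both knockouts were below wt without overlap. The log2 fold change was -1.03 (SE 0.16, adjusted p = 0.0288, edgeR) in fko and -1.02 (SE 0.16, adjusted p = 0.0204, edgeR) in mko. The direction held in each fit tried, but the call in fko missed the threshold without fko replicate 1 (adjusted p = 0.0584), mko replicate 1 (0.0507) or mko replicate 2 (0.0527) and with the fko and wt libraries alone (0.0733), and the call in mko without mko replicate 1 (0.183) or mko replicate 2 (0.101).

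The RNA libraries fell into sets that cross the groups. Reads outside genes made up 21.3% to 21.96% of the gene-level total in fko replicate 1, mko replicate 2 and wt replicate 1, and 27.5% to 27.8% in the other 3. With this set as a term in the fit, 26 of the 96 genes were past the threshold in fko, 15 higher and 11 lower, beside 23.3% of all genes (12.2% higher, 11.1% lower). In mko 24 were past it, 9 higher and 15 lower, beside 24.7% (12% higher, 12.7% lower). Both counts were near the background and near the rest of chromosome 17, where it was 28.1% and 26.4%. In that fit 19 genes were called in both knockouts and 31 in either, in comparisons that share the wt libraries.

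Among the 18 class I genes listed, 7 were expressed enough to be tested. None passed in the fit of group means, and in the fit with the read set 2 were lower in each knockout, H2-K1 and H2-Q4, in a fit that called 23.3% of all genes in fko and 24.7% in mko. H2-K1, a classical class I heavy chain, had 1.83 and 0.84 CPM in fko, 0.95 and 1.33 CPM in mko, and 3.86 and 3.65 CPM in wt. Its log2 fold change was -1.49 (adjusted p = 0.0983) in fko and -1.71 (adjusted p = 0.0568) in mko by edgeR with group means, and the adjusted p was 0.0117 and 0.00791 with the read set. H2-Q4 had 5.68 and 4.13 CPM in fko, 4.91 and 6.01 CPM in mko, and 8.996 and 8.39 CPM in wt. Both genes were below wt in every knockout library. So was H2-M5, which is outside the list and was picked after its values were seen. It had 2.35 and 2.97 CPM in fko, 2.79 and 1.52 CPM in mko, and 3.55 and 4.87 CPM in wt. With the read set it passed in mko (adjusted p = 0.0224, edgeR) and not in fko (adjusted p = 0.0785, edgeR).

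H2-D1, another classical class I gene, had 1.89 and 1.55 CPM in fko, 1.57 and 2.15 CPM in mko, and 2.15 and 1.09 CPM in wt. Its groups overlapped. H2-L, also listed, had at most 3 counts in any library and was not tested. H2-T23, H2-T22, H2-T10 and H2-M3 did not pass in either fit. Reads of these near copies may be split or lost between them, so values of single class I genes are uncertain. The 6 macrophage and leukocyte markers, of which 5 were above 0 in every library and Cd52 was at 0 in fko replicate 1, summed to 4.505 to 4.97 CPM in fko, 5.32 to 5.45 CPM in mko and 7.54 to 8.20 CPM in wt. Among these markers Ptprc, Csf1r, Cd68 and Itgam were below wt in every knockout library. Lyz2 and Cd52 overlapped between groups, with Lyz2 at 0.61 and 0.76 CPM in mko and 0.89 and 0.32 CPM in wt. The part of the markers in the class I values was not tested. Fewer cells of a type and less RNA per cell cannot be told apart in these bulk samples.

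The sequences just before the starts of H2-K1, H2-Q4 and H2-D1 are shown because these promoters carry the elements through which class I genes are known to be switched on, and because the groups overlapped in H2-D1 and not in the others. They are from RefSeq on GRCm38.p6, a build other than that of the peaks, at chr17:34000348-34000597 (minus strand), chr17:35379367-35379616 (plus strand) and chr17:35262844-35263093 (plus strand). Capitals mark matches to 3 motifs, searched on both strands, which do not overlap each other here. The first is GGGGATT, one side of the NF-kB site in enhancer A of class I promoters. The second is TTTCACT, from the core of the interferon response element. The third is CCAATCA, a form of the box that the factor NF-Y is known to bind.
H2-K1: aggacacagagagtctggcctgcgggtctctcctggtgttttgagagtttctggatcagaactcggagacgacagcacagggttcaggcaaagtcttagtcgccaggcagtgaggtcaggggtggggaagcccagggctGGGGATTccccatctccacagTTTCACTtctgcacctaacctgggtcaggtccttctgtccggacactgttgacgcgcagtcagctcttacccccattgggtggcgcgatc
H2-Q4: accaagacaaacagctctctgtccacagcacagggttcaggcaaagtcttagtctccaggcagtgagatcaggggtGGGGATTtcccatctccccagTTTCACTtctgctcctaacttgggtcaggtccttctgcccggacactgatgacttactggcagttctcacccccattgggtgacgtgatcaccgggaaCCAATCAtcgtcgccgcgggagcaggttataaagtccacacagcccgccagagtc
H2-D1: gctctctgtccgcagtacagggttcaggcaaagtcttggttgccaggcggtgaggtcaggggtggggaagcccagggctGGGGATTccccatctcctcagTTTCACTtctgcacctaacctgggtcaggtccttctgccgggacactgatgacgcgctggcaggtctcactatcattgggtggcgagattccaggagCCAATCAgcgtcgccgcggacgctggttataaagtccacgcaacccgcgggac
All 3 stretches of 250 bases held the first and second motif, and H2-Q4 and H2-D1 also held the third. The first motif lay 111 bases before the start in H2-K1, 174 in H2-Q4 and 171 in H2-D1, and the third lay 55 bases before the start in H2-Q4 and 53 in H2-D1. The H2-K1 window thus ends before the stretch that holds the third motif in the other two, so that it could not show it. Among all 32851 promoter stretches of that length, 907 (2.76%) held the first, 1217 (3.71%) the second and 2375 (7.23%) the third. Of the 12 listed class I genes with a promoter given, the first was in 7, the second in 9 and the third in 6. A match describes letters in this window and not a site in use.

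Class II genes were low, as 3 of the 9 listed passed the filter. H2-Ab1, a class II beta chain, had 2.61 and 0.97 CPM in fko, 0.95 and 2.09 CPM in mko, and 0.70 and 0.51 CPM in wt. It was higher in every knockout library than in wt, and passed with the read set but not with group means (adjusted p = 0.0251 in fko and 0.0436 in mko, edgeR). H2-DMa, which helps load peptides on class II molecules, overlapped between groups at 5.0 to 6.7 CPM.

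Antigen processing genes of the complex include Tap1 and Tap2, which together form the peptide transporter, and Tapbp, which holds class I molecules next to it. None of the 3 tested passed with group means. Tap2 had 1.18 and 0.65 CPM in fko, 0.55 and 0.76 CPM in mko, and 0.25 and 0.19 CPM in wt. With the read set it passed in fko (log2 fold change 1.99, adjusted p = 0.0281, edgeR) and not in mko (1.52, adjusted p = 0.0791, edgeR). Tap1 had 5.88 and 4.46 CPM in fko, 3.75 and 3.92 CPM in mko, and 3.80 and 2.75 CPM in wt, and did not pass.

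Of the class III list, C4a, a complement C4 copy that the RefSeq table gives as a transcribed pseudogene, had 1.31 and 1.16 CPM in fko, 1.70 and 0.70 CPM in mko, and 2.53 and 5.06 CPM in wt. It passed with the read set in both knockouts (adjusted p = 0.0150 and 0.0117, edgeR). C4b is a near copy of it. None of the 5 cytokine genes was tested, and neither heat shock gene tested, Hspa1a or Hspa1b, passed.

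Among 11 tested genes of chromatin and transcription, none passed with group means, and with the read set 1 was lower in fko and 3 in mko, beside 11.1% and 12.7% of all genes lower. Zfp57, a zinc finger protein that protects imprinted methylation, had 98.9 and 111 CPM in fko, 106 and 97.3 CPM in mko, and 131 and 159 CPM in wt. It was the one that passed in both knockouts with the read set (adjusted p = 0.00704 in fko and 0.00480 in mko, edgeR). Ehmt2 and Ring1, which encode a histone H3 lysine 9 methyltransferase and a Polycomb protein, did not pass.

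A list of 13 further genes of the complex, all tested, holds housekeeping genes and others such as the receptor Ddr1. With the read set the list went both ways, 6 higher and 3 lower in fko and 3 higher and 3 lower in mko, beside 23.3% and 24.7% of all genes called. In each knockout the 3 lower genes were Ddr1, Ppp1r10 and Gabbr1. Clic1, a chloride channel protein, had 165 and 124 CPM in fko, 137 and 155 CPM in mko, and 110 and 78.6 CPM in wt. Ppp1r10 had 68.1 and 59.6 CPM in fko, 60.3 and 62.2 CPM in mko, and 82.4 and 88.0 CPM in wt. Both kept their groups apart. Antigen presentation genes on other chromosomes gave 2 of 9 higher with the read set in each knockout, B2m and Psmb10, which is near the 23.3% and 24.7% of all genes called. B2m, the light chain of class I molecules, had 67.2 and 57.4 CPM in fko, 52.8 and 51.1 CPM in mko, and 44.4 and 37.3 CPM in wt, so it was higher where H2-K1 was lower.

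**Figure D5:**
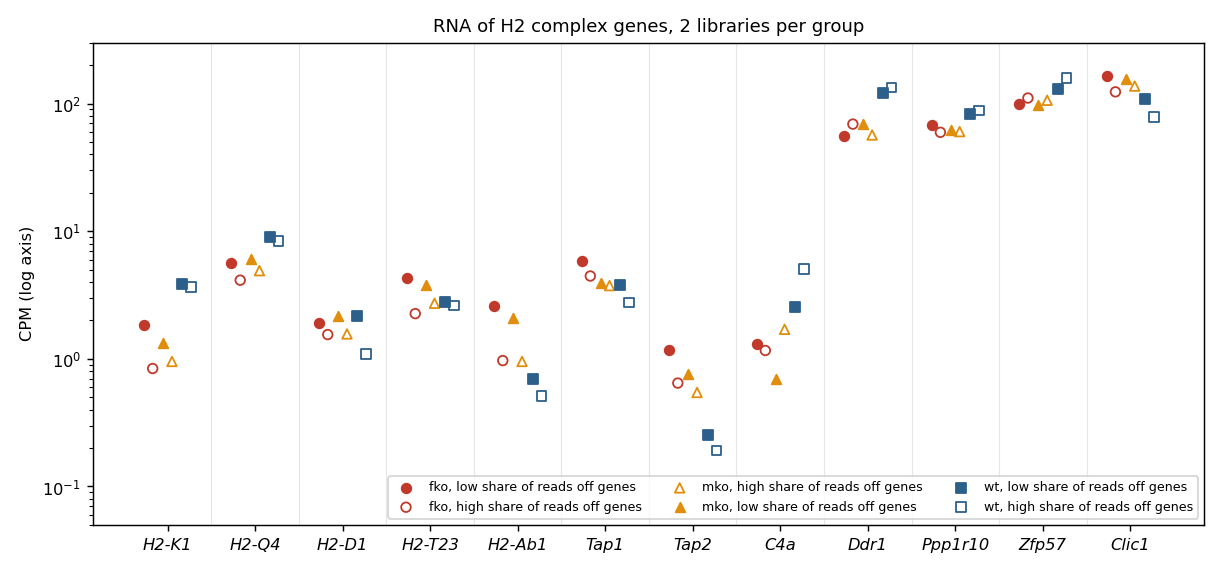
CPM on a log axis (y axis) of 12 genes of the H2 complex (x axis) in the 6 RNA libraries, with fko in red circles, mko in orange triangles and wt in blue squares. Filled symbols are libraries with a low share of reads outside genes and open symbols those with a high share. Ddr1, H2-K1 and H2-Q4 are lower in all 4 knockout libraries than in both wt libraries, and H2-D1 overlaps.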

How the data were processed

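The segment, its regions and the gene lists were chosen with earlier results of these data known. The submitters' processing notes name MACS2, HTSeq, Bowtie2, TopHat2, Trimmomatic, bedtools and SAMtools, and build mm9, and versions, read filters and the strand setting are not given in the sources used here. The deposited tables hold raw read counts per gene (RNA) and per MACS2 broad peak (histone marks), which the authors did not normalise. The deposited peak lists, called on pooled replicates, give a −log10 q value per peak, and the UTX list also a fold enrichment, which are the authors' own values.

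From the counts, all autosomal peaks, or all genes, that passed filterByExpr were fitted with edgeR 4.0.16 in R 4.3.3 (TMM factors, quasi-likelihood F test, Benjamini-Hochberg adjustment over all of them, threshold 0.05). Histone libraries of fko and wt were fitted alone, and mko against wt and fko against mko in all 7 libraries of a mark. RNA was fitted in all 6 libraries. Results carry 1-based coordinates. Intervals and floors cover counting error only. DESeq2 1.42.0, other scaling and filters, 1 entry per region, segment ends moved inward, replicate blocks, the read set as a term and each library left out were tried. Named regions are, per mark and at 1 CPM or more, the 6 lowest and 4 highest fold changes in fko, the 3 highest means and those at the ends; named genes are those past the threshold and the listed genes. The fits were tested on simulated data. Overlapping genes on opposite strands are uncertain. Input libraries and the pooled RNA samples were not used here.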

Additional observations from a re-analysis of the deposited data

Results flagged for a closer look

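Among the 15 H3K27me3 and 15 H3K4me3 regions of the segment named in the text, 8 and 3 were past the threshold of edgeR's quasi-likelihood test of fko against mko. Over all segment entries it was 49 of 143 for H3K27me3 and 43 of 342 for H3K4me3, beside 2.84% and 11.9% on the autosomes. Most of these regions were named for extreme values in fko, so the differences from mko are a description. The log2 difference of fko minus mko in H3K27me3 was -1.05 at chr17:36245296-36250911, -1.05 at chr17:36255652-36261134 and -1.32 at chr17:36265761-36269054. It was -0.90 at the 35.5 kb domain chr17:36274830-36310359, -0.49 at the 30.7 kb domain chr17:36348390-36379083 and -1.19 at chr17:35575394-35577668. At the regions with more H3K27me3 in the knockouts it was 0.97 at chr17:35833772-35842391 and 0.92 at chr17:37277063-37279873. In each of these 8 regions mko lay between fko and wt. For H3K4me3 fko was lower than mko by a log2 difference of -0.71 at chr17:34118344-34119170 and -0.54 at chr17:36368028-36368705, both with more signal in the knockouts than in wt. The second of these missed the threshold with DESeq2 and, in edgeR, without fko replicate 2 or fko replicate 3. The difference was 0.86 at chr17:34230176-34231156, where both knockouts were below wt and mko was lowest, with 97, 103 and 77 counts in fko, 53 in mko and 144, 120 and 172 in wt. All 11 comparisons rest on 1 mko library, so the spread between mko libraries is unknown and its part in them was not tested.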

How the results depend on the processing

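With 1 entry per region the counts past the threshold fell because fewer entries were tested, to 55, 18 and 25 H3K27me3 regions (fko against wt, mko against wt, fko against mko) and 133, 116 and 25 H3K4me3 regions, beside 27.4%, 7.17% and 2.75%, and 64.6%, 51.3% and 9.84%, of all regions tested. DESeq2 gave 23 H3K27me3 entries for mko against wt (1.98% of all) and 12 H3K4me3 entries for fko against mko (3.54% of all), with other histone counts within 1.5 times. With RLE factors, no filter, ends moved inward or all 7 libraries in the fit the histone counts stayed within 1.5 times, and leaving out 1 library each gave 89 to 100, 33 to 38 and 45 to 53 H3K27me3 entries and 193 to 213, 185 to 207 and 31 to 46 H3K4me3 entries. For RNA, DESeq2 gave 2 genes in fko and 4 in mko (3.58% and 5.26% of all genes), the read set as a term 26 and 24, and an edgeR fit of 1 knockout with wt 0 and 6. That 0 stands beside 15 genes at an unadjusted p under 0.05, and beside 2 by DESeq2 over all libraries. Leaving out 1 RNA library leaves a group with 1 library, so counts of genes from those fits are not given. The cause of these RNA changes was not tested.

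The replicate block gave 100 H3K27me3 and 229 H3K4me3 entries in fko against wt, beside 26.4% and 60% of all entries tested. In RNA it gave 1 gene in each knockout, beside 2.27% of all genes in fko and 3.31% in mko. Same-numbered fko and wt libraries correlated at -0.001, -0.009 and 0.015 for H3K27me3 and 0.11, 0.015 and 0.017 for H3K4me3, and 1 of 3 fko libraries of each mark correlated best with its own number, so the numbers were not taken to pair the samples. RNA replicate numbers correlated at 0.43 in fko and -0.24 in mko, and a crossed replicate block for mko and wt, chosen after seeing the data, gave 20 genes of the complex and 3018 of all 14351.

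Some values near 0 changed sign. Leaving out 1 library moved mko against wt H3K27me3 between -0.0348 and 0.00697 at 34320052 and between -0.0240 and 0.0146 at 37346277 (0.00248 with 1 entry per region). It moved fko against mko between -0.0287 and 0.159 (H3K27me3, 34396363), -0.0366 and 0.0142 (H3K4me3, 34160596), -0.0113 and 0.0226 (34252044), and -0.0724 and 0.000802 (37406815). In RNA, H2-D1 ranged from -0.34 to 0.66 in fko and -0.22 to 0.77 in mko, H2-DMa from -0.21 to 0.079 in fko and -0.33 to 0.085 in mko, and Tap1 in mko from -0.00206 to 0.48. No reversed value was past the threshold. Depth limits the weak regions, where few counts stand behind a fold change, and 1 mko library limits every mko histone value.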
